A study of Mus musculus with 32 samples.

Results

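Lipid droplets are the stores of neutral lipid inside cells, and the genes described here encode proteins of their coat and of the steps that feed them. CIDEA, CIDEB and CIDEC (also called FSP27) sit at the contacts between droplets and pass lipid from smaller to larger ones, the perilipins PLIN1 to PLIN5 coat the droplet surface and set how far lipases can reach the lipid, CD36 takes up long-chain fatty acids at the cell surface, and MOGAT1 joins a fatty acid to monoacylglycerol on the way to triglyceride. PLIN1, PLIN4 and CIDEC are abundant in white adipocytes, CIDEA and PLIN5 in brown fat, and PLIN2 in most fat-loaded cells, including hepatocytes and macrophages. In fatty liver, Cidec, Cidea, Cd36 and Mogat1 are known targets of PPARγ, the nuclear receptor that also drives adipocyte differentiation.

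The list was given by name and holds 10 genes (Cidea, Cideb, Cidec, Plin1, Plin2, Plin3, Plin4, Plin5, Cd36 and Mogat1). Of these, 9 were among the 24646 genes measured in each tissue, and Cideb was not analysed here. RNA came from liver, epididymal white fat (eWAT), inguinal white fat (iWAT) and brown fat (BAT) of male C57BL/6J mice, either Gpr146 knockout, with the gene for a G protein-coupled receptor deleted in the whole body, or wild-type littermates. All mice of both genotypes were 20 weeks old, had been fed a high-fat diet (HFD) for 3 months and were fasted overnight. In each tissue, 4 animals of either genotype gave 1 Affymetrix array each (32 arrays). The labels number the mice 1 to 4 in every tissue, without stating that a number is the same animal in all of them. Because the deletion affects the whole body, a difference in a tissue need not arise in that tissue. The values are log2 expression, so a difference of 1 is a doubling, and each tissue was normalized as a table of its own.

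Gpr146 itself was lower in every knockout array than in every wild-type array of the same tissue, with log2 fold changes of -1.77 in liver, -1.53 in eWAT, -1.55 in iWAT and -1.16 in BAT. The titles of the 4 knockout liver samples carry KO in their first part but then name a wild-type mouse. Their other labels say knockout, and the low Gpr146 values go with knockout. Hepatocyte markers had a mean log2 expression of 10.71 to 10.83 in wild-type livers. Of the adipocyte markers, Adipoq (2.41), Lep (1.78) and Slc2a4 (2.79) averaged there below the array medians of 3.00 to 3.06. The others on that list averaged above them, namely Pck1 (10.69), Cfd (4.65), Lipe (4.44), Adrb3 (3.89) and Retn (3.20). In BAT, Ucp1, the uncoupling protein of brown adipocytes, averaged 11.47 in wild-type mice. Markers of other tissues were high in some fat samples. B cell markers averaged 7.68, 7.66, 7.30 and 5.56 in iWAT of wild-type mice 1 and 2 and knockout mice 2 and 4, against 3.06 to 3.52 in the other 4. In BAT, skeletal muscle markers averaged 6.40, 7.31 and 7.51 in wild-type mice 2 and 3 and knockout mouse 2, against 2.83 to 3.57 in the other 5.

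In wild-type mice the 9 genes split by tissue. Ranges of levels are set side by side here across tables that were normalized apart, so only wide gaps between tissues can be read. Cidea was highest in BAT (11.01 to 11.31), followed by iWAT (5.11 to 5.95), liver (3.18 to 5.23) and eWAT (2.97 to 3.44), and among these only BAT stood clear of its neighbour. Plin5, the perilipin of tissues that burn fat, followed the same order in part, with 8.63 to 8.90 in BAT, above the overlapping ranges of liver (5.58 to 6.03), iWAT (4.60 to 5.98) and eWAT (4.16 to 5.35). Both genes were thus highest in brown fat.

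Cidec, Plin1, Plin4 and Cd36 were far lower in liver than in any depot. For Cidec, wild-type values ran from 10.65 to 11.09 in iWAT, 10.70 to 10.79 in eWAT and 10.42 to 10.62 in BAT, which are close, against 5.44 to 7.16 in liver. Cd36 had 11.09 to 11.30 in eWAT, 10.98 to 11.11 in BAT and 10.84 to 11.14 in iWAT, which overlapped, against 7.57 to 8.11 in liver. Plin4 had 10.11 to 10.83 in iWAT and 9.36 to 9.90 in eWAT, with a gap smaller than the offset of their array medians, 8.85 to 8.89 in BAT and, far lower, 5.50 to 6.28 in liver. Plin1, the main gatekeeper of lipolysis in adipocytes, had 9.24 to 9.39 in BAT, 8.58 to 9.25 in iWAT and 8.36 to 8.60 in eWAT, each overlapping the next, and 2.67 to 3.06 in liver, close to the array median.

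Plin2 and Plin3, which coat droplets in most cell types, were more even, with gaps between tissues too small to give an order. Plin2 had wild-type values of 9.45 to 9.65 in eWAT, 8.87 to 9.15 in BAT, 8.19 to 9.08 in iWAT and 8.53 to 8.72 in liver. Plin3 had 6.65 to 6.95 in BAT, 6.20 to 6.44 in eWAT, 5.76 to 6.50 in liver and 5.45 to 6.22 in iWAT. Mogat1 stayed near the array medians of 2.82 to 3.73 everywhere, with 3.50 to 4.14 in iWAT, 3.31 to 3.55 in BAT, 2.76 to 3.13 in eWAT and 2.72 to 2.90 in liver, so that its order across tissues cannot be read.

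**Figure D1:**
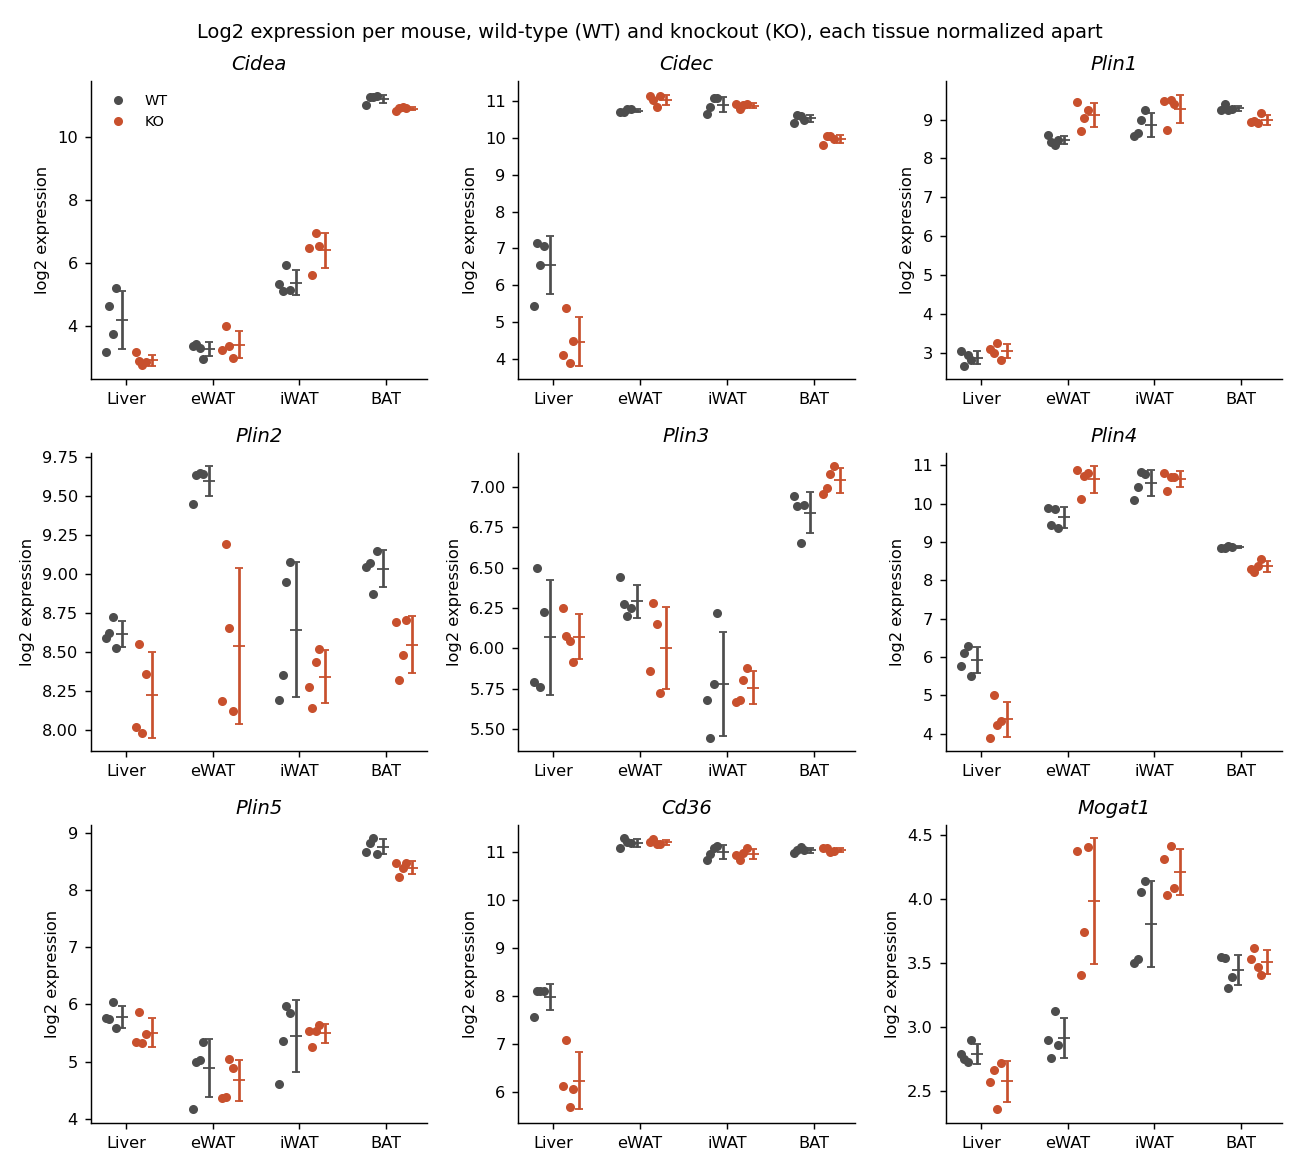
Log2 expression (vertical axis, a scale per panel) of the 9 measured genes in liver, eWAT, iWAT and BAT. Each point is 1 mouse, grey for wild-type (WT) and orange for knockout (KO), and the bars beside the points are the mean ± SD of 4 mice. In liver the knockout points of Cidec, Plin4 and Cd36 lie below all wild-type points, whereas in eWAT those of Cidec, Plin1, Plin4 and Mogat1 lie above them.

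The DNA just upstream of the 5 genes that passed the test in eWAT, of which Cidec and Plin4 also passed it in liver, is shown because PPARγ and C/EBPα are known drivers of several genes of this class. The stretches come from RefSeq on GRCm38.p6, start 250 bases before an annotated start site and end at that site or, for Plin1, Plin2 and Plin4, where a longer annotated transcript begins. Capitals mark a match to the nuclear receptor half-site AGGTCA or to the C/EBP-like sequence TTGCNNAA, on either strand. The order is Cidec (chr6:113435761-113436010, minus strand), Plin1 (chr7:79732905-79733026, minus), Plin2 (chr4:86670218-86670309, minus), Plin4 (chr17:56109949-56110032, minus) and Mogat1 (chr1:78510810-78511059, plus).
Cidec: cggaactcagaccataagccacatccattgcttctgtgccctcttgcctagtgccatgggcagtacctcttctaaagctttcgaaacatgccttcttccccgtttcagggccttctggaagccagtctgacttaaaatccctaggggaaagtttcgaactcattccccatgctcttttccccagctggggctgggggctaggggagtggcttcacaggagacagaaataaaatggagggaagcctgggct
Plin1: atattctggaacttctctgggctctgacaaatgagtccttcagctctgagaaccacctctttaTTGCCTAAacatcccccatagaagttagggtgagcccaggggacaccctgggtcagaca
Plin2: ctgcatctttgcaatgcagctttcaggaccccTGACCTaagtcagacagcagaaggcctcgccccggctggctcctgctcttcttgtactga
Plin4: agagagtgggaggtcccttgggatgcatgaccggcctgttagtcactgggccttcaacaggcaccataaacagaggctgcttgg
Mogat1: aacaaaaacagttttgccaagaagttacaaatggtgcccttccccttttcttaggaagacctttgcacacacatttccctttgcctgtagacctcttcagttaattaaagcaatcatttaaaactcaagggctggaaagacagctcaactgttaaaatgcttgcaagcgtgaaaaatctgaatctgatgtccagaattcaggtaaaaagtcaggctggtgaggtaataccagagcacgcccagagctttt
Within the full 250 bases before each of 11 annotated starts of the 9 genes other than Cidea (Cideb included), the direct repeat AGGTCANAGGTCA, which PPARγ binds with RXR, was found at 0 starts and at 0.0335% of 32851 mouse starts. The half-site AGGTCA, which is contained in that repeat, was found at 3 starts (Plin2, Cd36 and Plin5), and 14% of all starts hold it. TTGCNNAA was found at 2 starts (Plin1, with 2 matches, and the second start of Cidec), and 9.56% of all starts hold it. A match describes these letters only and was not tested as a binding site. The genes themselves lie apart in the genome except for Plin4 (chr17:56100587-56109948) and its neighbour Plin5 (chr17:56111597-56117606), which share a stretch of chromosome 17, with Plin3 (chr17:56278962-56290511) farther along it.

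In liver, 3 of the 9 genes fell in the knockout. Cidec was 4.24-fold lower, Cd36 3.34-fold lower and Plin4 2.92-fold lower, whereas Plin2, the common coat protein of hepatocyte droplets, was 1.31-fold lower without passing the test. Each gene was tested with limma, which steadies its variance by that of the other genes, and p was adjusted by Benjamini-Hochberg for 24646 genes, with a threshold of 0.05. Of all genes, 0.661% passed in liver and 0.499% passed as lower. The median log2 fold change of the 9 genes was -0.39, against 0.01 over all genes.

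In wild-type livers Cidec read 5.44, 7.16, 6.54 and 7.06, and knockout livers had 4.11, 5.39, 3.89 and 4.48. The groups did not overlap, although knockout mouse 2 (5.39) came close to the lowest wild-type mouse (5.44). The log2 fold change was -2.08 ± 0.38 (SE), with an adjusted p of 0.0387 (limma). Cidea, the other CIDE gene, read 3.18, 4.65, 3.76 and 5.23 in wild-type and 3.19, 2.90, 2.77 and 2.87 in knockout livers. Wild-type mouse 1 lay at the knockout level and the other 3 wild-type mice above it, and all 4 knockout mice lay near the array median. The log2 fold change of Cidea was -1.27 ± 0.35 (SE), and the adjusted p was 0.139 (limma).

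Cd36 read 7.57, 8.11, 8.11 and 8.11 in wild-type and 6.12, 7.09, 5.68 and 6.06 in knockout livers, again with no overlap and with knockout mouse 2 highest of its group. Its log2 fold change was -1.74 ± 0.25 (SE), with an adjusted p of 0.0144 (limma). Mogat1 also separated, with 2.79, 2.75, 2.72 and 2.90 in wild-type and 2.57, 2.66, 2.35 and 2.72 in knockout livers, but at a level near the array median and by only -0.22 ± 0.09 (SE, adjusted p = 0.332, limma). In all, 4 of the 9 genes were lower in the knockout with no overlap between the groups, and 4.16% of all genes were.

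Among the perilipins of liver, Plin4 read 5.78, 6.12, 6.28 and 5.50 in wild-type and 3.90, 5.01, 4.24 and 4.34 in knockout mice. The groups did not overlap, and the difference was -1.55 ± 0.22 (SE) on the log2 scale (adjusted p = 0.0144, limma), with knockout mouse 2 again the highest of its group. Plin5, its neighbour on the chromosome, differed by -0.27 ± 0.13 (SE) with overlapping groups (adjusted p = 0.405, limma). Plin2 read 8.59, 8.62, 8.72 and 8.53 in wild-type and 8.02, 8.55, 7.98 and 8.36 in knockout livers, so that 3 knockout mice lay below the wild-type range and knockout mouse 2 within it. Its log2 fold change was -0.39 ± 0.12 (SE, adjusted p = 0.2, limma). Plin1 (0.18 ± 0.11 SE) and Plin3 (0.00 ± 0.15 SE) did not pass, with overlapping groups.

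Around these genes, little else of the droplet and uptake machinery passed the test in liver. Of 20 other droplet proteins, 1 fell, namely Mgll, the lipase that cleaves monoacylglycerol (-0.50 ± 0.09 SE, adjusted p = 0.0371, limma), and 0 rose. Of the same 20, 8 were lower and 0 higher at an unadjusted p below 0.05 (limma). With no overlap between the groups, 6 of them were lower and 0 higher, and 4.16% of all genes were lower in that way. Of 20 genes of fatty acid uptake and activation, 9 of glycerolipid synthesis and 12 transcription factors, 0 passed. An unadjusted p below 0.05 (limma) was found for 8, 2 and 4 of them, as for 13.3% of all genes. Of the uptake and activation genes, 4 were higher and 4 lower at that threshold. In glycerolipid synthesis 0 were higher and 2 lower, and of the transcription factors 1 was higher and 3 lower. Pparg read 5.49, 6.00, 5.92 and 6.38 in wild-type and 4.76, 5.48, 5.10 and 4.78 in knockout livers and missed the threshold (-0.92 ± 0.19 SE, adjusted p = 0.0624, limma). Fabp4, a fatty acid carrier and PPARγ target of adipocytes and macrophages, read 3.43, 5.06, 4.12 and 5.48 in wild-type and 2.07, 4.66, 2.50 and 2.95 in knockout livers, with wide spread (-1.48 ± 0.54 SE, adjusted p = 0.267, limma).

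Markers of other liver cells moved with these falls. All 8 endothelial markers were lower in knockout livers and 3 of them (Cdh5, Kdr and Tek) fell, with a list mean of 4.58 to 4.72 in wild-type and 3.72 to 4.45 in knockout mice. All 8 stellate and fibroblast markers were lower too and 3 of them (Lrat, Reln and Dcn) fell, with list means of 4.43 to 4.87 and 3.69 to 4.35. Macrophage markers were mixed, since 0 of 10 passed, 6 were lower at an unadjusted p below 0.05 and the other 4 were higher, of which Trem2 (0.32) had an unadjusted p below 0.05, with list means of 4.32 to 4.73 and 3.70 to 4.55. Of 8 adipocyte markers, Cfd fell and Adrb3 rose. The hepatocyte list overlapped, at 10.71 to 10.83 and 10.78 to 10.89. Knockout mouse 2 had the highest knockout values of the endothelial, stellate and macrophage lists as well as of Cidec, Cd36 and Plin4. In bulk tissue, fewer cells of a type and less RNA per cell cannot be told apart, and the part of these cells in the falls of Cidec, Cd36 and Plin4 was not tested.

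The liver calls depended on single arrays. Without wild-type mouse 3 or knockout mouse 4, 0 of the 3 genes passed (Cd36 adjusted p = 0.0533 and 0.0581, limma), and among single arrays left out Cidec passed only without wild-type mouse 1 or knockout mouse 2, while the log2 fold changes stayed between -2.45 and -1.88 for Cidec, -2.02 and -1.56 for Cd36 and -1.76 and -1.39 for Plin4. Without wild-type mouse 1, Cidea passed as well (adjusted p = 0.0414, limma).

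In eWAT the list split. Plin1, Plin4, Cidec and Mogat1 rose in the knockout, Plin2 fell, and Cd36, Cidea, Plin3 and Plin5 did not pass. Thus 4 genes rose and 1 fell of 9, where 4.57% of all genes rose, 10.7% fell and 15.2% passed in either direction, so that a call in this depot was common. The median log2 fold change of the 9 genes was 0.13, against 0.03 over all genes.

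Plin4 read 9.90, 9.46, 9.87 and 9.36 in wild-type and 10.88, 10.13, 10.72 and 10.79 in knockout eWAT, a 1.98-fold rise (0.99 ± 0.19 SE on the log2 scale, adjusted p = 0.012, limma). Plin1 read 8.60, 8.43, 8.36 and 8.46 in wild-type and 9.46, 8.72, 9.04 and 9.25 in knockout mice (0.65 ± 0.15 SE, adjusted p = 0.019, limma). In both, the groups did not overlap and knockout mouse 2 lay nearest the wild-type mice.
Plin2 went the other way, from 9.45, 9.64, 9.65 and 9.64 in wild-type to 8.18, 9.20, 8.65 and 8.12 in knockout mice. The 4 wild-type values lay close together and all knockout values below them, a 2.08-fold fall in the mean (-1.06 ± 0.21 SE, adjusted p = 0.0137, limma). Plin3 (-0.29 ± 0.13 SE, adjusted p = 0.16) and Plin5 (-0.21 ± 0.25 SE, adjusted p = 0.617) did not pass (limma).

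Mogat1 read 2.90, 2.76, 3.13 and 2.86 in wild-type and 4.38, 3.41, 3.74 and 4.41 in knockout eWAT. The wild-type values lay at or below the array median and all knockout values above it, a rise of 1.07 ± 0.21 (SE) on the log2 scale (adjusted p = 0.0138, limma). No measure of background was used here, so wild-type Mogat1 is not shown to be above it and the size of the rise is uncertain. Cidec rose by less, from 10.71, 10.70, 10.78 and 10.79 to 11.15, 11.04, 10.85 and 11.13 (0.30 ± 0.08 SE, adjusted p = 0.0421, limma). This call did not hold after quantile normalization, where the log2 fold change of Cidec was 0.18 (adjusted p = 0.166, limma). Cidea did not pass (0.13 ± 0.20 SE, adjusted p = 0.698, limma).
Cd36 read 11.09, 11.30, 11.22 and 11.19 in wild-type and 11.23, 11.28, 11.18 and 11.17 in knockout eWAT, a difference of 0.01 ± 0.07 (SE, adjusted p = 0.923, limma).

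**Figure D2:**
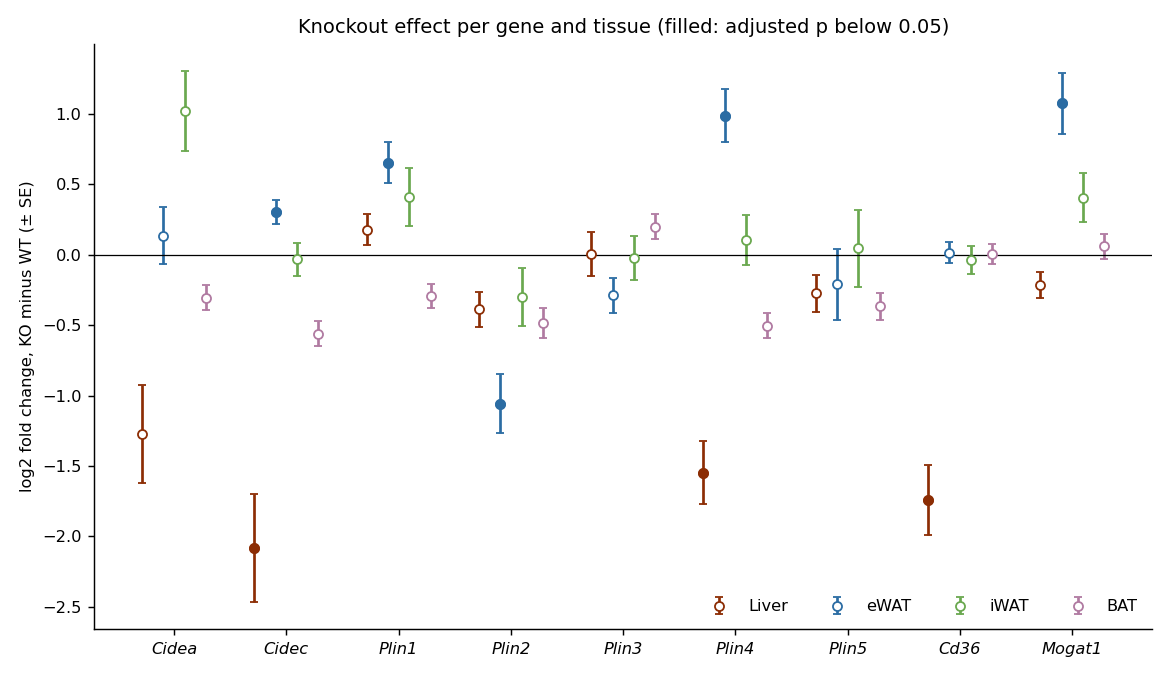
Log2 fold change of knockout over wild-type (vertical axis, ± SE, 4 mice per genotype) for the 9 genes in 4 tissues, with filled points where the adjusted p was below 0.05. Liver holds the 3 filled falls of Cidec, Plin4 and Cd36, eWAT holds 4 filled rises and the fall of Plin2, and iWAT and BAT hold no filled point.

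Other genes of the same machinery also passed in eWAT in both directions. Of 20 other droplet proteins, 5 rose and 3 fell, and the largest changes were Pnpla3, an acylglycerol hydrolase induced by feeding (1.40, adjusted p = 0.0433), Hilpda, an inhibitor of the lipase ATGL that is abundant in lipid-loaded macrophages (-1.0, adjusted p = 0.0117), and Fitm2, which is needed for droplets to bud (0.73, adjusted p = 0.0123, limma). Of 20 genes of fatty acid uptake and activation, 3 rose and 4 fell, led by the carrier Fabp5 (-1.18, adjusted p = 0.0105), the transporter Slc27a1 (0.99, adjusted p = 0.00956) and Gpihbp1, which carries lipoprotein lipase to the capillary wall (0.57, adjusted p = 0.0389, limma). Fabp4 rose by 0.24 ± 0.07 (SE, adjusted p = 0.0448, limma).
Glycerolipid synthesis had 4 rises and 1 fall among 9 genes, the largest being the acyltransferases Gpam (1.72, adjusted p = 0.00871), Gpat3 (1.20, adjusted p = 0.0382) and Dgat1 (0.90, adjusted p = 0.0177, limma). Of 12 transcription factors, 3 rose and 0 fell, namely Cebpa (1.13, adjusted p = 0.00823), Pparg (0.61, adjusted p = 0.0203) and Ppara (0.49, adjusted p = 0.0205, limma), the first 2 of which drive adipocyte differentiation.

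Markers of other cells of eWAT moved with these genes. Of 10 macrophage markers, 8 fell and 0 rose (median log2 fold change -2.30), and the list mean was 7.95 to 8.16 in wild-type against 5.31 to 7.69 in knockout eWAT. The 2 that did not pass were Clec4f (0.25) and Timd4 (-0.21). Of 8 adipocyte markers, 7 rose and Lep fell (list mean 7.80 to 8.40 and 8.80 to 9.31), and of 8 stellate and fibroblast markers 5 fell and 0 rose. Knockout mouse 2, whose macrophage list mean of 7.69 was the highest of the knockout mice, was also the knockout mouse nearest the wild-type mean for Plin1, Plin2, Plin4 and Mogat1. For Cidec, knockout mouse 3 was nearest. The part of the macrophages and of the adipocyte share in the changes of Plin1, Plin2, Plin4, Cidec and Mogat1 was not tested.

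Plin2, Plin4 and Mogat1 passed in eWAT whichever array was left out. Plin1 missed the threshold without wild-type mouse 2, 3 or 4 or knockout mouse 4, and Cidec passed only without knockout mouse 3, so that 3 of the 9 genes were left in those 4 cases. Without knockout mouse 2, Plin3 passed too (adjusted p = 0.0418, limma).

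In iWAT, 0 of the 9 genes passed, as did 0% of all genes, although 15.4% of all genes had an unadjusted p below 0.05 and 2 of the 9 did, both higher in the knockout (Cidea and Mogat1). Cidea read 5.35, 5.11, 5.95 and 5.15 in wild-type and 6.50, 5.63, 6.96 and 6.54 in knockout iWAT. Knockout mouse 2 lay within the wild-type range and the other 3 above it, and the log2 fold change was 1.02 ± 0.29 (SE, adjusted p = 0.226, limma). Mogat1 differed by 0.40 ± 0.17 (SE, adjusted p = 0.311, limma) and Plin1 by 0.41 ± 0.21 (SE, adjusted p = 0.37, limma), with overlapping groups.
The other 6 genes had log2 fold changes from -0.30 (Plin2) to 0.11 (Plin4). Pparg (0.10 ± 0.24 SE) and Fabp4 (0.06 ± 0.09 SE) did not pass, and 0 genes of the 4 pathway lists did. The macrophage list mean was 6.27 to 6.73 in wild-type and 5.15 to 6.41 in knockout iWAT, with 0 of 10 markers passing and 5 lower at an unadjusted p below 0.05. The brown adipocyte list mean was 3.27 to 3.85 in wild-type and 3.63 to 4.40 in knockout iWAT, with 6 of 7 markers higher and 3 of them at an unadjusted p below 0.05. The adipocyte list mean was 8.37 to 8.98 and 8.87 to 9.34, with 4 of 8 markers higher and 1 lower without overlap. Of all 24646 genes, 1058 were higher and 951 lower without overlap in this depot. The part of these cells in the values of Cidea, Mogat1 and Plin1 was not tested.

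The B cell signal sets a limit in this depot, and its part in the values was not tested. With the 4 arrays of high B cell markers left out, which leaves 2 mice per genotype, Cidea differed by 1.18 ± 0.29 (SE, adjusted p = 0.0713, limma) and Plin2 by -0.66 ± 0.15 (SE, adjusted p = 0.0653, limma), and 0 of the 9 passed although 916 of all genes did. Without knockout mouse 2 alone, 227 genes passed, Cidea among them (log2 fold change 1.28, adjusted p = 0.0445, limma).

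In BAT, too, 0 of the 9 genes passed, where 0.0284% of all genes did, and 7 of the 9 had an unadjusted p below 0.05, as 12.7% of all genes had. Of these, 6 were lower in all 4 knockout mice than in any wild-type mouse, and 3.92% of all genes were. Cidec read 10.42, 10.62, 10.60 and 10.50 in wild-type and 9.82, 10.06, 10.05 and 9.96 in knockout BAT (-0.56 ± 0.09 SE, adjusted p = 0.0727, limma). Plin4 read 8.85, 8.85, 8.89 and 8.88 in wild-type and 8.30, 8.22, 8.38 and 8.55 in knockout BAT (-0.50 ± 0.09 SE, adjusted p = 0.0901, limma). Neither passed the threshold over all genes although every knockout mouse was lower.
Plin2 (-0.49 ± 0.11 SE, adjusted p = 0.13), Plin5 (-0.37 ± 0.09 SE, adjusted p = 0.161), Cidea (-0.31 ± 0.09 SE, adjusted p = 0.19) and Plin1 (-0.29 ± 0.09 SE, adjusted p = 0.199, limma) made up the other 4. Plin3 was higher in every knockout mouse (0.20 ± 0.09 SE, adjusted p = 0.392, limma), as 3.31% of all genes were. Cd36 (0.00 ± 0.07 SE) and Mogat1 (0.06 ± 0.09 SE) overlapped.

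Among the pathway lists of BAT, 1 gene passed, Agpat2, an acyltransferase of phosphatidic acid synthesis (-0.60 ± 0.07 SE, adjusted p = 0.0483, limma), and 4 of the 9 genes of glycerolipid synthesis were lower with no overlap. Pparg (-0.28 ± 0.14 SE, adjusted p = 0.442) and Fabp4 (0.04 ± 0.07 SE, adjusted p = 0.864, limma) did not pass. The brown adipocyte list mean was 8.48 to 8.81 in wild-type and 7.96 to 8.12 in knockout BAT, with 0 of 7 markers passing and 4 lower at an unadjusted p below 0.05, and its part in the lower values was not tested. With the 3 arrays of high muscle markers left out, which leaves 2 wild-type and 3 knockout mice, Cidec differed by -0.51 ± 0.12 (SE, adjusted p = 0.555, limma), and Plin5 by -0.21 ± 0.11 (SE, adjusted p = 0.784, limma), against -0.37 with all arrays. Cidec passed without wild-type mouse 1 (-0.60, adjusted p = 0.045, limma).

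**Figure D3:**
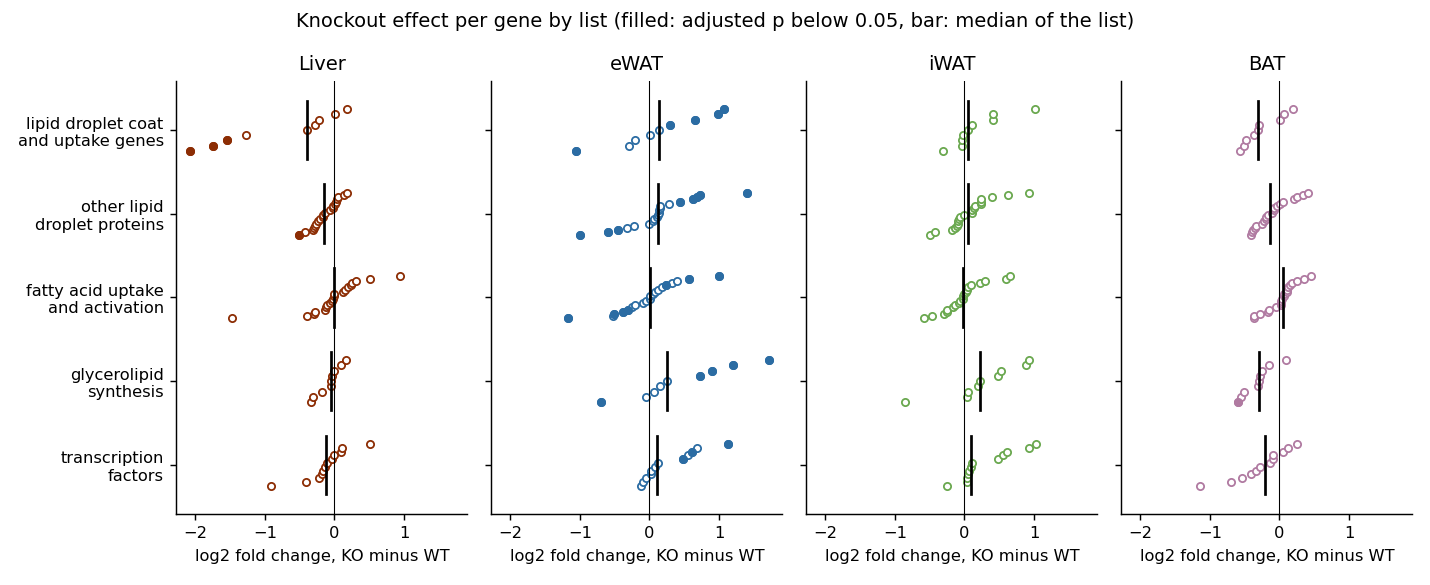
Log2 fold change of knockout over wild-type (horizontal axis) for each gene of the droplet coat and uptake list (9 genes) and of 4 related lists (20, 20, 9 and 12 genes), in a panel per tissue. Each point is a gene, filled where its adjusted p was below 0.05, and the black bar is the median of the list. Filled points lie on both sides of 0 in eWAT, on the negative side in liver, and number 1 in BAT and 0 in iWAT.

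Whether liver differed from the depots was tested on the differences themselves, in 1 limma fit of all 32 arrays with a mean for each of 8 groups. For each gene this fit shares 1 spread over all tissues, so SE and p in every contrast can be too small where liver varied more. In liver alone the SE was 0.25 for Cd36 and 0.38 for Cidec, above the 0.23 and 0.35 of their differences from eWAT. The knockout effect was lower in liver than in eWAT for 5 of the 9 genes (Cidea, Cidec, Plin4, Cd36 and Mogat1) and higher for 0, whereas 6.69% of all genes differed in this contrast and 2.33% were lower in liver. Plin4 had the widest gap, -2.53 ± 0.28 (SE, adjusted p = 5.78e-06, limma), followed by Cidec, -2.38 ± 0.35 (SE, adjusted p = 0.000184, limma). For Cd36 the gap was -1.75 ± 0.23 (SE, adjusted p = 5.12e-05, limma).
Mogat1 differed by -1.29 ± 0.23 (SE, adjusted p = 0.0011, limma) and Cidea by -1.41 ± 0.41 (SE, adjusted p = 0.0362, limma). Plin2 pointed the other way, 0.67 ± 0.26 (SE), and did not pass (adjusted p = 0.143, limma). Pparg (-1.53 ± 0.29 SE, adjusted p = 0.00167) and Fabp4 (-1.72 ± 0.48 SE, adjusted p = 0.0283, limma) also differed between liver and eWAT.

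Against BAT, Cd36 alone passed, with a difference of -1.75 ± 0.23 (SE, adjusted p = 0.000329, limma), where 0.166% of all genes differed and 0.105% were lower in liver. Cidec (-1.52 ± 0.35 SE, adjusted p = 0.0801) and Plin4 (-1.04 ± 0.28 SE, adjusted p = 0.189, limma), which were lower in the knockout in both tissues, did not. Without wild-type mouse 1, Cidec passed too, and without knockout mouse 2 both Cidec and Plin4 did.
Against iWAT, Cidea (-2.29 ± 0.41 SE), Cidec (-2.05 ± 0.35 SE), Plin4 (-1.65 ± 0.28 SE) and Cd36 (-1.70 ± 0.23 SE) passed, where 0.467% of all genes did and 0.3% were lower in liver. This fit shares 1 spread over all tissues, and when liver minus iWAT was taken per mouse number instead, 0 of the 4 passed (adjusted p between 0.105 for Cd36 and 0.189 for Cidea, limma). Without knockout mouse 1, Cd36 alone was left, and without wild-type mouse 2, Cd36 and Plin4, while Cidea also missed without wild-type mouse 4 or knockout mouse 3.

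Against the mean of the 3 depots, the liver effect was lower for Cidea (-1.56 ± 0.34 SE, adjusted p = 0.0193), Cidec (-1.98 ± 0.29 SE, adjusted p = 0.000346), Plin4 (-1.74 ± 0.23 SE, adjusted p = 8.92e-05) and Cd36 (-1.73 ± 0.19 SE, adjusted p = 4.14e-06, limma), where 0.771% of all genes differed and 0.418% were lower in liver. The depot effects of Cd36 were 0.01 in eWAT, -0.04 in iWAT and 0.00 in BAT, with SE of 0.07 to 0.10. In the depots Cd36 lay at the 99.9th percentile of each array, near the top of its range, and whether the array could have shown a change there was not tested. Cidec in eWAT and iWAT, Plin4 in iWAT and Cidea in BAT also had wild-type medians at the 99.9th percentile. Whether this limited their depot effects was not tested either. For Plin1, Plin2, Plin3 and Plin5 no difference between liver and a depot passed, although without knockout mouse 2 those of Plin1 and Plin2 between liver and eWAT did. Cidea is less firm: without wild-type mouse 2 or 4 or knockout mouse 1, 3 or 4 it missed the threshold against the depot mean, and against eWAT also without knockout mouse 2. Taken per mouse number, Cidea passed neither against eWAT (adjusted p = 0.082, limma) nor against the depot mean (adjusted p = 0.0643, limma). Mogat1 did not pass against the depot mean (-0.73 ± 0.19 SE, adjusted p = 0.0626, limma), but it did without knockout mouse 2 (adjusted p = 0.00856), after quantile normalization (0.0426), with 1 array weight per tissue (0.0166), with dim genes left out (0.045) and per mouse number (0.0236, limma).

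**Figure D4:**
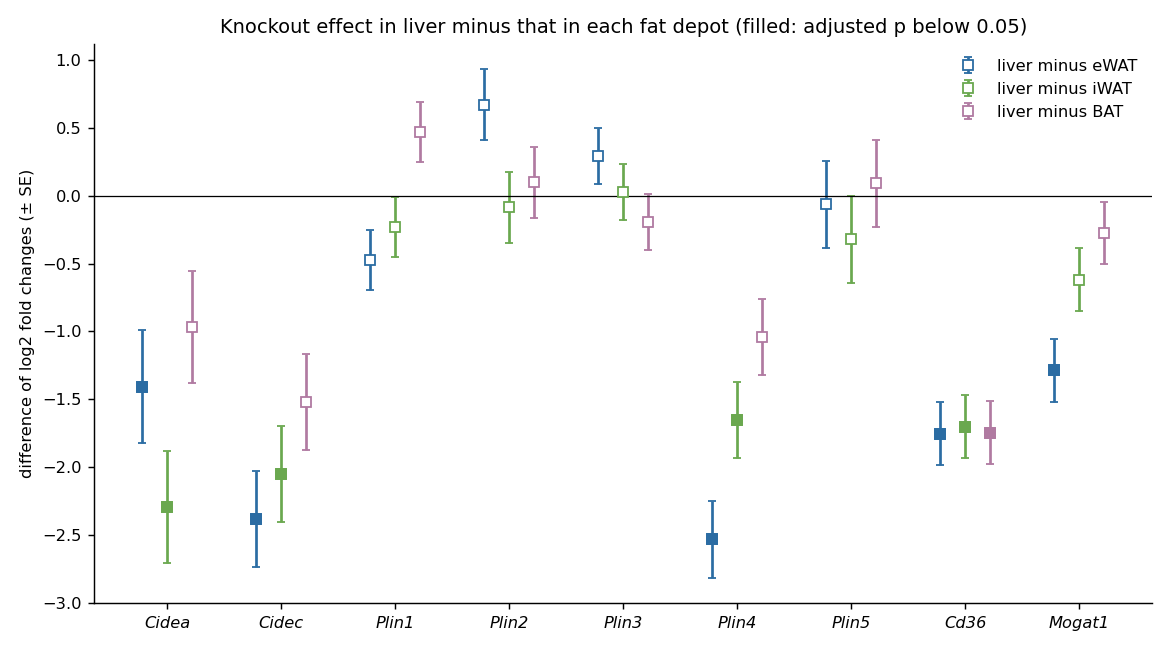
Knockout effect (log2 fold change) in liver minus that in eWAT, iWAT or BAT (vertical axis, ± SE) for the 9 genes, filled where the adjusted p was below 0.05. For Cd36 all 3 squares are filled and lie close to -1.7, whereas for Cidec and Plin4 the square against BAT is unfilled and lies closer to 0.

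Among the depots, chosen for comparison after the values had been seen, eWAT and BAT differed for Plin4 (1.49 ± 0.28 SE, adjusted p = 0.00209), Mogat1 (1.01 ± 0.23 SE, adjusted p = 0.0079) and Plin1 (0.94 ± 0.22 SE, adjusted p = 0.00935, limma), all with a higher knockout effect in eWAT, where 6.51% of all genes differed and 2.26% were higher in eWAT. Without knockout mouse 1, Plin4 alone was left, and without knockout mouse 2 Plin2 passed too, as Cidec did per mouse number (adjusted p = 0.00999, limma). Between iWAT and BAT and between eWAT and iWAT 0 of the 9 passed, where 0.325% and 1.15% of all genes did. At an unadjusted p below 0.05 (limma) there were 3 and 4 of the 9. The share of all genes at that looser threshold was not counted, so these counts cannot be set against the 2 shares given. Without knockout mouse 2, Cidea and Plin1 passed between iWAT and BAT, and Plin2, Plin4 and Mogat1 between eWAT and iWAT.

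Within groups, some pairs of these genes varied together across mice and other pairs did not. Deviations from the 8 group means, scaled to the same spread in each tissue, correlated at r = 0.53 for Cidec with Cd36, 0.53 for Plin4 with Plin5 and 0.52 for Plin5 with Cd36 over the same 32 arrays, and the lowest of the 36 pairs was Plin3 with Plin5 (r = -0.17). These are descriptions across arrays that share samples and normalization, and that include the iWAT and BAT arrays of high B cell or muscle markers. The r of other gene pairs is not set beside them here. The genes closest in pattern were Acta2, Ipo13 and Tmem167b for Cidec (r = 0.75 to 0.74), Acap3, Syne2 and Cry2 for Plin1 (0.85 to 0.83), and Mxra7, Tmprss4 and Itsn1 for Plin2 (0.81 to 0.75). For Plin4 they were Pck1, Syne1 and Phlda3 (0.85 to 0.79), for Cd36 Sqstm1, 3110070M22Rik and Ppp2r2d (0.79 to 0.73), and for Mogat1 Mir3067, 2210415F13Rik and Abcd2 (0.78 to 0.77), each chosen from all 24646 genes.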

How the data were processed

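The authors deposited log2 expression values from Affymetrix Mouse Gene 2.1 ST arrays (100 ng of total RNA per array, biotin label), 1 value per gene symbol, already normalized within each tissue. Normalization method, software and probe summary are not given in the sources used here. For 840 genes the numeric identifier was not a whole number, which was read as an average over several probe sets. The sources do not state this. After 1 or 2 entries without a usable name were left out of each table, 24646 genes remained. Older symbols were matched through RefSeq for Ldah, Cavin1, Gpat3 and Adgre1, and Trac had no match.

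Each tissue was fitted on its own with limma 3.58.1 (R 4.3.3), with Benjamini-Hochberg adjustment over all genes. The members and lists were chosen with earlier results of these data known. Genes outside the list were named where they passed in liver, iWAT or BAT, as the 3 largest changes past the threshold per list in eWAT, or as the 3 closest patterns, besides Pparg and Fabp4, which were always given, and marker genes. Arrays of 1 mouse number in several tissues entered the joint fit as separate samples (correlation within a number 0.0244). Alternatives were quantile normalization, equal array medians, a trended and robust prior, array weights, dim genes left out, a block for replicate number, marker covariates, the methods' t-test and each array left out. Leaving out the arrays of high B cell or muscle markers was added after seeing the data. Figures were drawn with matplotlib 3.10.9. The number of arrays limits the precision. The procedure was tested on simulated data with independent noise for each gene and array. Those data held no variation shared between genes or between tissues of a mouse, so they cannot show how firm the calls are here.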

Additional observations from a re-analysis of the deposited data

Results flagged for a closer look

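In 4 of 72 groups of 4 mice, 1 value stood apart from the other 3 by more than Dixon's 95% critical value, and chance gives about 1 in 20. Cd36 in liver of wild-type mouse 1 was 7.57, against 8.11 in the other 3, and so lay on the side of the knockout livers. Plin2 in eWAT of wild-type mouse 1 was 9.45, against 9.64 to 9.65. Plin1 in iWAT of knockout mouse 2, a sample with high B cell markers, was 8.72, against 9.41 to 9.49. Cidea in BAT of wild-type mouse 1 was 11.01, against 11.27 to 11.31.

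Knockout effects that differed between tissues, by the contrasts of the joint fit, were those of Cidea (-1.41), Cidec (-2.38), Plin4 (-2.53), Cd36 (-1.75) and Mogat1 (-1.29) for liver minus eWAT, Cidea (-2.29), Cidec (-2.05), Plin4 (-1.65) and Cd36 (-1.70) for liver minus iWAT, and Cd36 (-1.75) for liver minus BAT. Against the mean of the depots they were Cidea (-1.56), Cidec (-1.98), Plin4 (-1.74) and Cd36 (-1.73), and for eWAT minus BAT Plin1 (0.94), Plin4 (1.49) and Mogat1 (1.01).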

How the results depend on the processing

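The count of genes past the threshold depended most on the test and on single arrays. With the methods' t-test after Benjamini-Hochberg adjustment, 0 of the 9 genes passed in liver and 0 in eWAT, and unadjusted it gave 5 in liver, 1 in iWAT and 7 in BAT. The share of all genes passing the unadjusted t-test was not counted, so these unadjusted counts cannot be read as more than the share of all genes. With a trended and robust prior, 1 gene (Cidec) passed in BAT, and 2 in place of 3 passed in liver, where Cidec missed (adjusted p = 0.124, limma), as it did in eWAT (0.0786). With array weights, Plin3 fell in eWAT (adjusted p = 0.0327, limma). When single arrays were dropped, the counts ran from 0 to 4 in liver, 3 to 5 in eWAT, 0 to 1 in iWAT and 0 to 1 in BAT, from 4 to 6 for liver minus eWAT, 1 to 4 for liver minus iWAT, 1 to 3 for liver minus BAT, 3 to 5 for liver minus the depots, 1 to 4 for eWAT minus BAT, 0 to 2 for iWAT minus BAT and 0 to 3 for eWAT minus iWAT. Taken per mouse number, liver minus iWAT gave 0. Over all genes, dropping single arrays gave 41 to 300 calls in liver (163 with all arrays), 1448 to 5429 in eWAT (3758), 0 to 227 in iWAT (0) and 0 to 80 in BAT (7). The B cell covariate gave 99 in iWAT, dim genes left out gave 252 in liver, and the t-test after adjustment gave 2 in liver, 38 in eWAT, 1 in iWAT and 0 in BAT.

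Signs turned only for genes whose difference had not passed. With arrays set to equal medians, Plin3 in liver was -0.0154 and Cd36 in BAT -0.00987. After quantile normalization, Cd36 in eWAT was -0.144, Plin3 in iWAT 0.157 and Plin4 in iWAT -0.00519. With array weights in iWAT, Cidec was 0.0286, Plin3 0.0606 and Cd36 0.0192. With B cell markers as a covariate, Plin5 in iWAT was -0.0204, and with the arrays of high B cell markers left out Plin4 was -0.0432 and Plin5 -0.376. With the arrays of high muscle markers left out, Mogat1 in BAT was -0.00147. Leaving out single arrays, Plin3 in liver ran from -0.0994 to 0.146, Cd36 in eWAT from -0.0238 to 0.0462, Cidea in eWAT from -0.0659 to 0.273, Cidec in iWAT from -0.12 to 0.0253, Plin3 in iWAT from -0.136 to 0.121, Cd36 in iWAT from -0.0948 to 0.00443, Plin4 in iWAT from -0.0367 to 0.205, Plin5 in iWAT from -0.236 to 0.224 and Cd36 in BAT from -0.017 to 0.0263. The causes were not tested.

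Whether wild-type and knockout mice of the same number form pairs is not stated in the labels. Same-numbered arrays did not all correlate above 0.1 in any tissue (r from -0.38 to 0.67), which cannot decide it. With the replicate number as a block, 3 genes passed in liver and 4 in eWAT, against 0 in BAT and 0 in iWAT, and the lost call was Cidec in eWAT (adjusted p = 0.0824, limma). With mouse number as a random block, the counts against eWAT, iWAT, BAT and the depots were 5, 4, 1 and 4.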
